A study of Mus musculus with 6 samples.

Results

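The transcripts of Toll-like receptors, of their adaptors MyD88 and TRIF and of IRAK kinases were followed in mouse embryonic fibroblasts (MEFs) depleted of CNOT3 (CNOT3KD MEFs). The genes were Tlr1, Tlr2, Tlr3, Tlr4, Tlr6, Myd88, Ticam1, Irak1, Irak3 and Irak4. All probe sets that the annotation of the array pairs with exactly 1 gene symbol, that of one of these genes, were taken. They came to 17 of the 45037 probe sets on the array and covered 9 of the 10 genes, out of 18193 genes named in this way. Irak4 was not analysed here.

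The CCR4-NOT complex shortens the poly(A) tails of mRNAs, and CNOT3 is one of its subunits. Primary MEFs were infected with a control retrovirus or with one that expresses Cre and were then selected in puromycin for 2 days. The study describes the cells of both cultures as CNOT3 loxP/loxP, while the labels give the genotype of the controls as wild type. RNA was taken at 0 h and after actinomycin D (Act. D) for 6 h or 12 h, a drug that stops transcription, so that the design asks which mRNAs persist longer when CNOT3 is depleted. The conditions were thus control MEFs and CNOT3KD MEFs at 0, 6 and 12 h, with 1 array each. No condition had a replicate, so the values carry no error, and no test was run. Loss of CNOT3 rests on Cre acting in a selected population, and fewer cells of a type cannot be told apart from less RNA per cell in such bulk samples.

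Toll-like receptors recognize molecules of microbes and of damaged cells. TLR2 pairs with TLR1 or TLR6 to sense lipoproteins at the cell surface, TLR4 senses lipopolysaccharide, and TLR3 senses double-stranded RNA in endosomes. Most of them recruit the adaptor MyD88, which assembles IRAK4 and IRAK1 to switch on NF-kB, whereas TLR3 uses the adaptor TRIF (the product of Ticam1) and TLR4 uses both. IRAK-M, the product of Irak3, lacks effective kinase activity and restrains the MyD88 branch. Fibroblasts express several of these receptors and answer their ligands with cytokines.

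The promoters of the genes above control at all 3 times at their brightest probe set are shown to display the short elements found in them. The reason is that interferon response genes were also higher in CNOT3KD MEFs, as given below. The sequences and coordinates are those of RefSeq on GRCm38.p6, a table that held promoters for 9 of the 10 genes and none for Tlr4. Each is the 250 bases before the start, written 5′ to 3′ on the strand of the gene, which is the minus strand for all 4. Capitals mark matches on either strand to GAAANNGAA, the core of interferon-stimulated response elements, to TTCNNNGAA, the form bound by STAT factors, or to GGGNNNTTC, a short form of the NF-kB element.
Tlr2 (chr3:83841609-83841858): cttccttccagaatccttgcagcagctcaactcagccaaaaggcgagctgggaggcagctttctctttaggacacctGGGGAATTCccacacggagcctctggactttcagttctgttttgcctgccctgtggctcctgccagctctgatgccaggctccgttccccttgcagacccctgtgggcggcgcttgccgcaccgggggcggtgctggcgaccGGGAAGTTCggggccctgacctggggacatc
Tlr3 (chr8:45410381-45410630): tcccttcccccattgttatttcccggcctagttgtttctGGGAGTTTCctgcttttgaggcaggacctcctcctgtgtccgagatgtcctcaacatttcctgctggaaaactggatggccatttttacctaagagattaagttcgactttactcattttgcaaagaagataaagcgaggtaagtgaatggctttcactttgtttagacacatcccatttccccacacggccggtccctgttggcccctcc
Myd88 (chr9:119340019-119340268): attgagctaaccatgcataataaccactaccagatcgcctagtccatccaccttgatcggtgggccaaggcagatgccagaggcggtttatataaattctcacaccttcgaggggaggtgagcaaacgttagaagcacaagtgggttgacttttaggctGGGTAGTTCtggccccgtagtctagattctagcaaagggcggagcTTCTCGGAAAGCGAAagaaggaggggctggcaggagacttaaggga
Irak3 (chr10:120202131-120202380), the upstream start of 2 listed: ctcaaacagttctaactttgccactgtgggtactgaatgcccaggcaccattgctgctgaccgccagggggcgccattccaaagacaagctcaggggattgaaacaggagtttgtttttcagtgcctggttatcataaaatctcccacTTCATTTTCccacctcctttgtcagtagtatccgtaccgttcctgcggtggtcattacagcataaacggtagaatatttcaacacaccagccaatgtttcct

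The Tlr2 promoter held the NF-kB form 173 and 31 bases before the start, and that of Tlr3 held it 211 bases before the start. The Myd88 promoter held the interferon-stimulated core 40 bases before the start, sharing the letters GAA with a STAT form, as well as an NF-kB form. The upstream promoter of Irak3 held the interferon-stimulated core on the opposite strand, 102 bases before the start, and its other promoter held none of the elements. Of all 32851 promoters in the table, 8.56% held the interferon-stimulated core, 8.3% the STAT form and 14.0% the NF-kB form, counted over 300 bases that include the first transcribed bases. Of the 2 promoters of Tlr6, one held 2 overlapping interferon-stimulated cores and the other 2 STAT forms and 1 NF-kB form, and 1 of the 2 promoters of Tlr1 held a STAT form. The promoters of Ticam1, Irak1 and Irak4 held no match. A match is a description of the letters and not a site.

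The deposited values are MAS5 signals, the intensity of a probe set on a linear scale. The trimmed means of the 6 arrays were between 494 and 497, so a signal left of over 100% means a larger share of the signal of its array than at 0 h. The 25th percentile of an array lay between 13.6 and 19.8. Signals below it are called near background here, and folds against them are bounds computed from that percentile. Of the 102 values of the 17 probe sets, 15 were near background, and 9 probe sets were never near background. The brightest probe set of a gene stands for it unless another is named, and levels are not compared between genes. Cnot3, the targeted gene, was 1.82-fold lower at 0 h at its brightest probe set (436 to 239.6) and 1.11-fold higher at its other one (204 to 227), which was lower at 6 h and 12 h. Whether these probe sets lie in the deleted part is not known here. The study itself reports depletion of CNOT3 by immunoblot and a decrease of cnot3 mRNA by qPCR.

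At 0 h, 3 of the 9 genes were more than 1.5-fold higher in CNOT3KD MEFs, namely Tlr2, Tlr3 and Irak3, beside 19.5% of all genes. The study names these 3 genes from the same arrays, so their count is not independent evidence of a direction. Irak1 was the 1 gene more than 1.5-fold lower, beside 15.7% of all genes. CNOT3KD MEFs were above control MEFs at all 3 times for Tlr2, Tlr3, Tlr4, Myd88 and Irak3, 5 of 9 genes beside 27.8% of all genes. Tlr2, Tlr3 and Irak3 are again the genes that the study names. The count holds for the brightest probe sets. At 0 h, the ratio for Tlr4 was 0.640 at 1418162_at and 0.638 at 1442827_at, and at 6 h that for Irak3 was 0.591 at 1430704_at. CNOT3KD MEFs were below control MEFs at all 3 times for Irak1 alone among the 9, beside 20.5% of all genes.

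**Figure D1:**
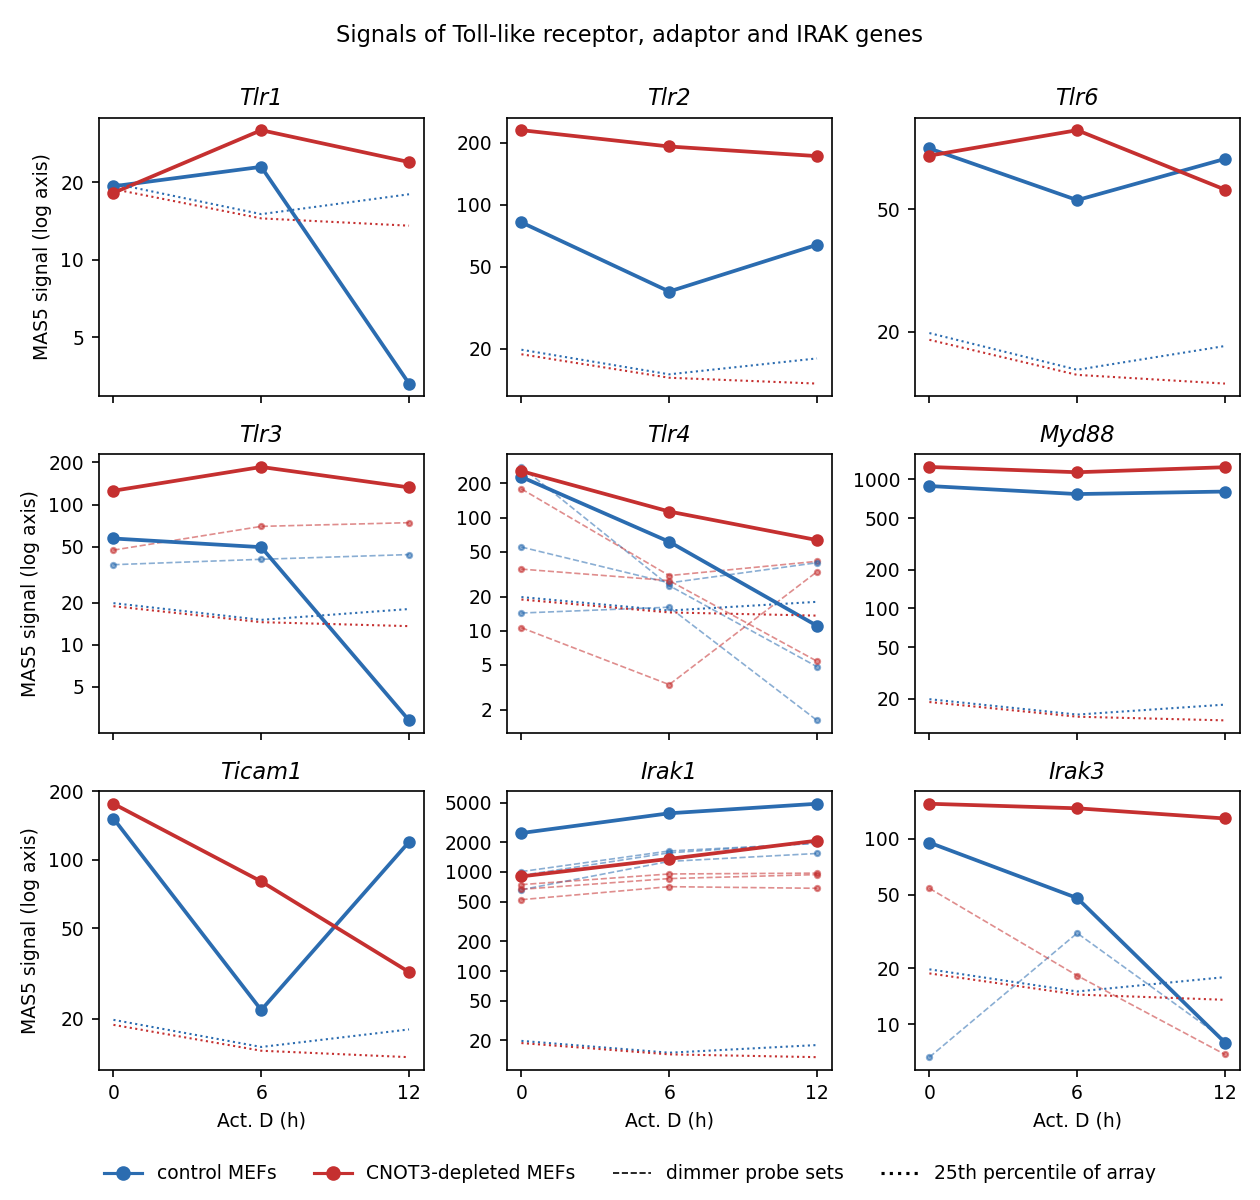
MAS5 signals (log axis) of 9 genes over 12 h of Act. D, 1 array per point, control MEFs in blue and CNOT3KD MEFs in red. Solid lines are the brightest probe set, dashed lines the dimmer ones and dotted lines the 25th percentile of each array, and the solid control lines of Tlr3, Tlr4 and Irak3 end below the dotted line at 12 h, unlike their solid CNOT3KD lines, while the dashed lines of these genes end on either side of it.

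Among the surface receptors, Tlr2 (probe set 1419132_at) had signals of 82.0, 37.9 and 63.9 in the controls at 0, 6 and 12 h of Act. D, and of 229.5, 191 and 172 in CNOT3KD MEFs. The lowest of the CNOT3KD values was above the highest of the control values. The ratio between the cultures was 2.80 at 0 h, 5.05 at 6 h and 2.69 at 12 h. Thus the gap was widest at 6 h, where the control signal was lowest, and at 12 h it was near its size at 0 h. As a measure over both times, the fraction left in CNOT3KD MEFs was divided by that in control MEFs, and the log2 values at 6 h and 12 h were averaged, which gave 0.40 for Tlr2.

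Tlr6 (1421352_at), which encodes the partner of TLR2 for diacylated lipoproteins, had 78.7, 53.5 and 72.8 in control MEFs and 74.6, 90.2 and 57.9 in CNOT3KD MEFs. The cultures overlapped, with a ratio of 0.947 at 0 h, 1.69 at 6 h and control MEFs 1.26-fold higher at 12 h. Tlr6 was thus above control at 6 h and at neither of the other times. Tlr1 (1449049_at), for the partner that serves triacylated lipoproteins, had 19.3, 23.0 and 3.31 in control MEFs and 18.2, 31.9 and 24.0 in CNOT3KD MEFs. It was near background at 0 h in both cultures, so no fold is given there, and it was 1.39-fold higher in CNOT3KD MEFs at 6 h and at least 1.33-fold higher at 12 h.

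Tlr4, the lipopolysaccharide receptor gene, had 4 probe sets. The brightest (1418163_at) had 228, 61.0 and 11.0 in control MEFs and 257, 113 and 63.2 in CNOT3KD MEFs. The cultures were close at 0 h, with a ratio of 1.13, and stood apart after Act. D, 1.85-fold at 6 h and at least 3.51-fold at 12 h. Control MEFs kept 26.7% at 6 h and, being near background, at most 7.87% at 12 h, whereas CNOT3KD MEFs kept 43.9% and 24.6%. The next probe set (1418162_at) had 280, 24.99 and 4.79 in control MEFs and 179, 30.6 and 41.0 in CNOT3KD MEFs. Here control MEFs were 1.56-fold higher at 0 h, and CNOT3KD MEFs were 1.23-fold higher at 6 h and at least 2.28-fold higher at 12 h. Both probe sets therefore lost less in CNOT3KD MEFs, and they differed in direction at 0 h. A further one (1442827_at) was 1.57-fold higher in control MEFs at 0 h and at least 2.94-fold higher there at 12 h, and the last (1430695_at) was near background in 4 of 6 arrays.

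Tlr3, the endosomal receptor gene for double-stranded RNA, had a brightest probe set (1422782_s_at) with 57.2, 49.7 and 2.88 in control MEFs and 125, 185 and 132 in CNOT3KD MEFs. No control value reached the lowest CNOT3KD value. The gap was 2.19-fold at 0 h, 3.73-fold at 6 h and at least 7.37-fold at 12 h. Its dimmer probe set (1422781_at) had 37.2, 40.7 and 44.0 in control MEFs and 47.3, 69.9 and 74.2 in CNOT3KD MEFs. There, too, the cultures did not overlap, but the control signals were highest at 12 h and the gap lay between 1.27-fold and 1.72-fold. A lower control signal at 12 h than at 0 h was thus seen at 1 of the 2 probe sets of Tlr3.

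Myd88 (1419272_at), the adaptor gene shared by most of the receptors, had 887, 768 and 804 in control MEFs and 1246, 1134 and 1240 in CNOT3KD MEFs. Each CNOT3KD value was above each control value, and the ratio was 1.40 at 0 h, 1.48 at 6 h and 1.54 at 12 h. In both cultures the signal was nearly flat, as the controls kept 86.6% and 90.6% and CNOT3KD MEFs kept 91.0% and 99.5%. Myd88 thus stayed under the 1.5-fold line at 0 h, at a fold larger than that of 76.6% of all genes.

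Ticam1 (1454676_s_at), the gene of the adaptor TRIF, had 152, 21.9 and 120 in control MEFs and 177, 80.4 and 32.1 in CNOT3KD MEFs. The control signal was low at 6 h alone, whereas the CNOT3KD signal was lowest at 12 h. Accordingly the ratio was 1.16 at 0 h and 3.68 at 6 h, and control MEFs were 3.73-fold higher at 12 h. Without a second array at each time, the order of these values cannot be set against an error.

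Irak1, the gene of the kinase that IRAK4 activates, was the 1 gene with the opposite direction throughout. Its brightest probe set (1438120_x_at) had 2463, 3895 and 4859 in control MEFs and 901, 1353 and 2065 in CNOT3KD MEFs. Control MEFs were 2.73-fold, 2.88-fold and 2.35-fold higher at 0, 6 and 12 h, and the cultures did not overlap. A probe set with this suffix can also bind other transcripts, so the other 3 are given too, of which 1438857_x_at has the same suffix. At 1460649_at the signals were 1007, 1625 and 1934 in control MEFs and 744, 953 and 971 in CNOT3KD MEFs. At 1448668_a_at they were 922, 1556 and 1962 against 667, 856 and 939, and at 1438857_x_at 661, 1275 and 1533 against 525, 709 and 683. All 12 comparisons of the 4 probe sets, which were read on the same arrays, had the lower signal in CNOT3KD MEFs. Control MEFs were 1.26-fold to 2.88-fold higher. At 0 h, however, the 3 dimmer probe sets were within 1.5-fold, at 1.26-fold to 1.38-fold, and their gap was 1.99-fold to 2.24-fold at 12 h. All 4 probe sets had higher signals after Act. D than at 0 h in both cultures, and the brightest kept 158% and 197% in the controls against 150% and 229% in CNOT3KD MEFs. The other 3 kept 161% to 193% at 6 h and 192% to 232% at 12 h in the controls, against 128% to 135% and 130.1% to 141% in CNOT3KD MEFs, so they had less left there at both times.

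Irak3, the gene of the inhibitor IRAK-M, had a brightest probe set (1435040_at) with 95.1, 47.9 and 7.99 in control MEFs and 154, 146 and 128 in CNOT3KD MEFs. The control signal was under the 25th percentile at 12 h, and the lowest CNOT3KD value was above the highest control value. The gap was 1.62-fold at 0 h, 3.04-fold at 6 h and at least 7.14-fold at 12 h. Its dimmer probe set (1430704_at) had 6.67, 31.0 and 8.26 in control MEFs and 54.0, 18.3 and 6.89 in CNOT3KD MEFs. At that one, CNOT3KD MEFs were at least 2.73-fold higher at 0 h, control MEFs were 1.69-fold higher at 6 h, and both were near background at 12 h. The 2 probe sets of Irak3 thus shared a direction at 0 h and not after Act. D.

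**Figure D2:**
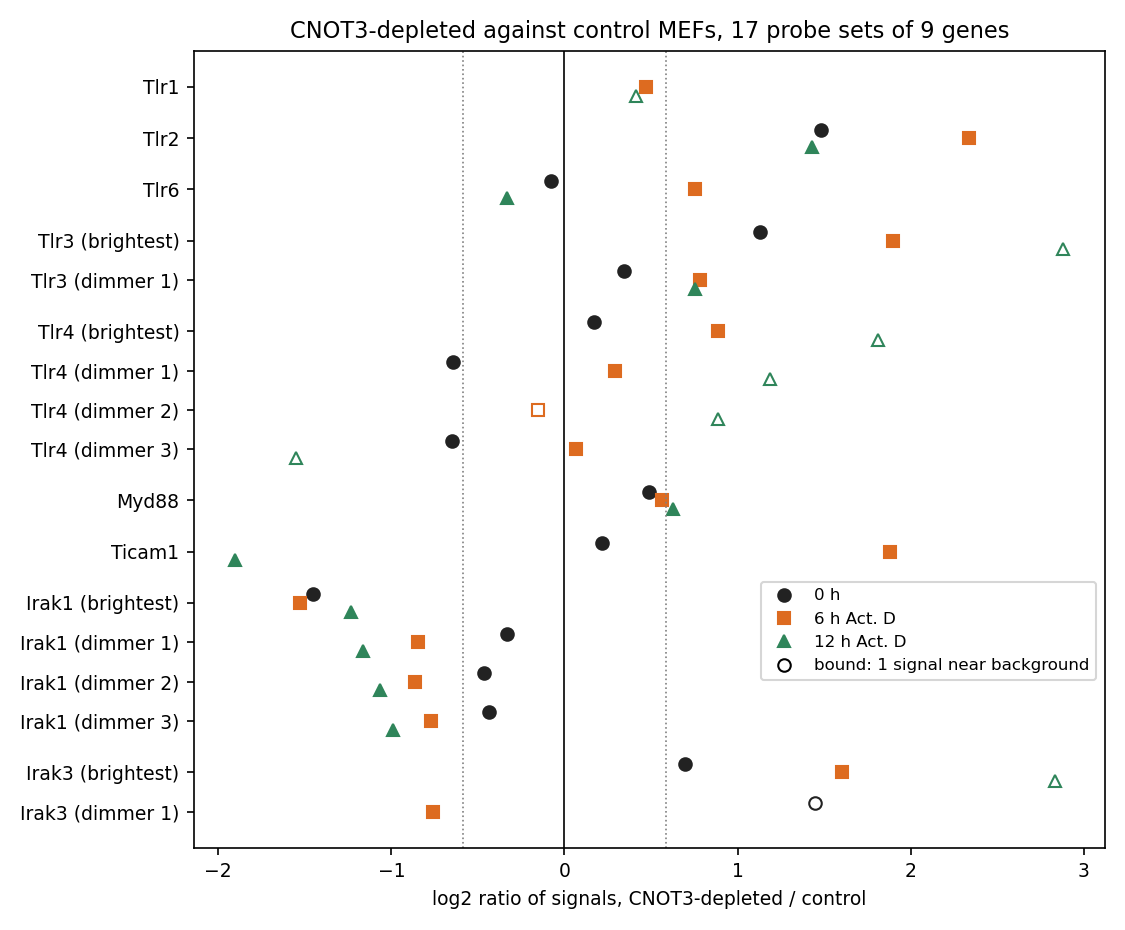
Log2 ratio of the signal in CNOT3KD over control MEFs for the 17 probe sets at 0 h (black circles), 6 h (orange squares) and 12 h (green triangles), 1 array per culture and time. Hollow symbols are bounds, points with both signals near background are left out and dotted lines mark 1.5-fold, and the 4 Irak1 probe sets lie left of 0 at every time while those of Tlr2, Tlr3 and Myd88 lie right of it.

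Considering all 9 genes, CNOT3KD MEFs were above control MEFs for 6 at 0 h, for 8 at 6 h and for 6 at 12 h. Over all 17 probe sets they were above for 8, 11 and 9. At 6 h, Irak1 was the exception. The same counts over all genes were not made, so these counts have no background, and no direction is read from them. They also include comparisons with both signals near background, as for Tlr1 at 0 h. The 75th percentile of the arrays in CNOT3KD and control MEFs was 447 and 436 at 0 h. It was 364 and 275 at 6 h, and 337 and 242 at 12 h. The median log2 fold of the 9 genes at 0 h was 0.22, beside 0.06 over all genes with quartiles of -0.32 and 0.45. Hence the median lay inside the middle range of all genes, with Tlr2 above 94.0%, Tlr3 above 91.1% and Irak3 above 83.9% of them and Irak1 above 5.49%.

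The fraction left was above that of control MEFs at both 6 h and 12 h for 5 of 9 genes (Tlr3, Tlr4, Myd88, Irak3 and Tlr1, the last near background at 0 h), beside 38.3% of all genes. It was below at both times for 0 of 9, beside 36.6% of all genes. These counts are for the brightest probe sets, and less was left at both times at the other 3 probe sets of Irak1 and at the dimmer one of Irak3. The rule of at least 2 times the fraction left at both times was met by 0 of 9 genes, beside 12.4% of all genes, and the mirrored rule also by 0, beside 7.48%. Leaving out Tlr1, which was near background at 0 h in both cultures, Tlr3 at 2.58, Irak3 at 2.11 and Tlr4 at 1.53 had the highest mean log2 ratio of the fractions left. Taken without a bound, they were above 96.4%, 93.6% and 87.5% of all genes, respectively, and each had a control signal near background at 12 h. With near-background signals set to the 25th percentile, the values were 1.26, 1.53 and 1.18. They missed the rule at 6 h, where the ratio of the fractions was 1.71 for Tlr3, 1.88 for Irak3 and 1.64 for Tlr4. Tlr3 and Irak3 were the 2 genes that were both more than 1.5-fold higher at 0 h and had more left at both times, beside 3.47% of all genes. The study names both from the same arrays, selected for stability and for the level at 0 h. This count and the 5 of 9 with more left are therefore not independent evidence of a direction. The study places Tlr2 in the same selected set and also describes its mRNA as stabilized. Here, Tlr2 had more left in CNOT3KD MEFs at 6 h (83.3% against 46.2% in control MEFs). At 12 h it had slightly less (74.9% against 77.9%). The study selected by hierarchical clustering and not by the rule of 2 times the fraction left, which Tlr2, Tlr3 and Irak3 did not meet.

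**Figure D3:**
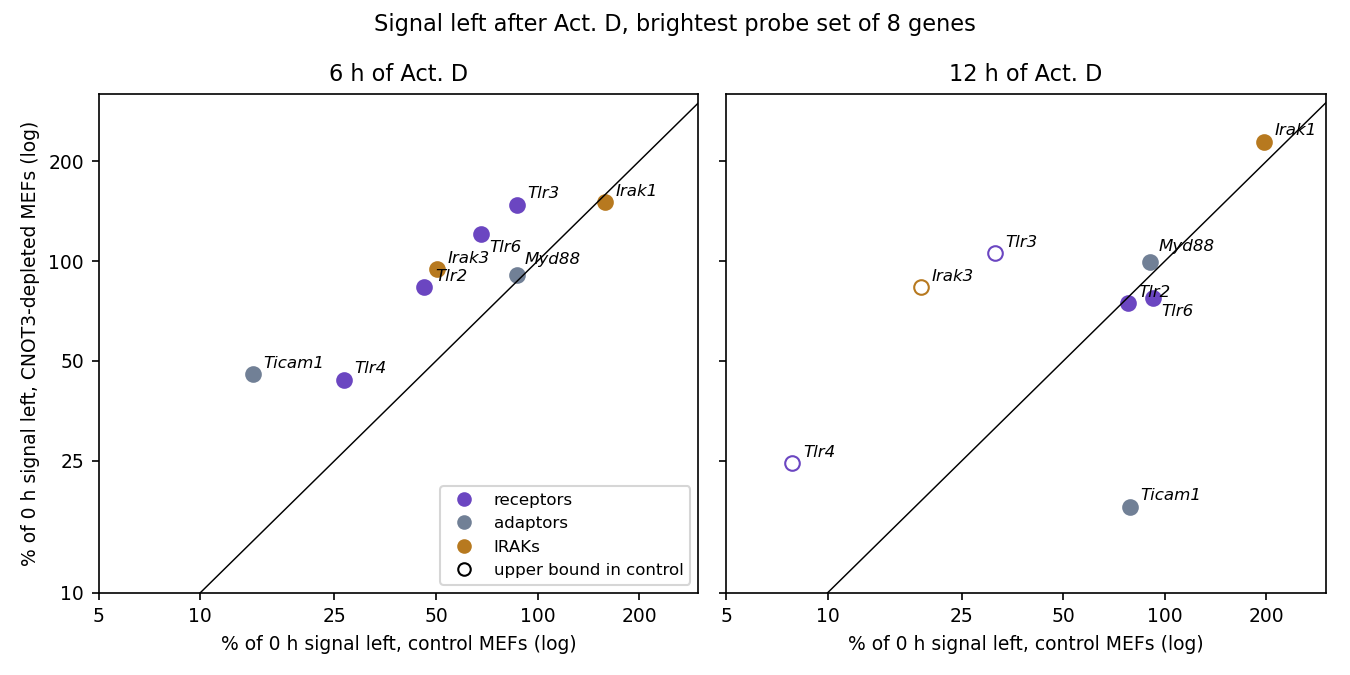
Signal left after Act. D as a percent of that at 0 h in control MEFs (horizontal axis) and CNOT3KD MEFs (vertical axis), both on log axes, at 6 h and 12 h for the brightest probe sets, without Tlr1, which was near background at 0 h. Hollow points are upper bounds in control MEFs, and points over the diagonal kept more in CNOT3KD MEFs, as Tlr3, Tlr4, Myd88 and Irak3 did at both times, while Ticam1 lies over it at 6 h (14.4% against 45.5%) and under it at 12 h (78.9% against 18.2%).

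In median, the controls kept 68.0% of the signal of the 9 genes at 6 h and 77.9% at 12 h, and CNOT3KD MEFs kept 94.5% and 83.3%. Over all genes, the medians were 95.1% and 95.9% in control MEFs and 98.8% and 96.3% in CNOT3KD MEFs. Most of the 9 genes had low to middle signals, and therefore the 4092 genes with a mean signal of 50 to 300 at 0 h were also taken as background. Of the 6 genes in that range, 3 were more than 1.5-fold higher beside 21.1%, 0 were lower beside 11.5%, and 0 met the rule of 2 times the fraction left beside 7.18%.

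The genes whose 6 signals ran most like those of Tlr2, by Euclidean distance of mean-centred log2 signals among 9097 genes, were Myzap (0.44), Fbxo7 (0.45) and Mrvi1 (0.49). Those nearest to Irak3 were Rab43 (0.39), Inpp5b (0.48) and Borcs5 (0.52). Those nearest to Tlr3 were farther off, namely Phf11d (1.09), Bola1 (1.10) and Pdlim4 (1.28). These distances describe the shape over 6 arrays and nothing else.

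Of 70 other genes of the pathway, 62 were measured. At 0 h, 10 of them (16.1%) were more than 1.5-fold higher and 9 (14.5%) lower, and 10 (16.1%) met the rule of 2 times the fraction left. With near-background signals set to the 25th percentile, the counts were 9, 6 and 8. The median log2 fold was 0.0044 and the median log2 ratio of the fractions left was 0.26. These shares were near those over all genes.

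Among co-receptors and trafficking factors, 2 of 9 were more than 1.5-fold higher and 0 lower, beside 19.5% and 15.7% of all genes. Cd14, which hands lipopolysaccharide to TLR4, was 197 in control and 297 in CNOT3KD MEFs at 0 h, 1.51-fold higher. Ly86, the partner of CD180, was at least 1.81-fold higher, with the control near background. Cd180, a TLR4 relative, had 57.3, 17.5 and 23.0 in control MEFs and 39.7, 51.9 and 54.6 in CNOT3KD MEFs, and it was the 1 gene of this list with at least 2 times the fraction left at both times. Ly96, the gene of MD-2 that binds lipopolysaccharide with TLR4, was picked after its values were seen. It had 433, 288 and 155 in control MEFs and 556, 612 and 612 in CNOT3KD MEFs, so like Tlr4 it was close between the cultures at 0 h and apart at 12 h.

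Of 3 other adaptor and IRAK genes, 0 were past 1.5-fold at 0 h, and all 3 had more left at both times, beside 38.3% of all genes. Tirap, which bridges TLR2 and TLR4 to MyD88, had 937, 437 and 178 in control MEFs and 849, 517 and 459 in CNOT3KD MEFs. Irak2, a further kinase of the IRAK family, had 570, 442 and 311 against 584, 561 and 543. Sarm1, a TIR-domain protein, was 129 against 109 at 0 h. The ratio of the cultures at 0 h was thus 1.02 for Irak2 and 0.905 for Tirap, and both signals were higher in CNOT3KD MEFs at 12 h.

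Of 17 kinases, ligases and factors after the IRAKs or TRIF, 3 were more than 1.5-fold higher, 0 lower, and 3 met the rule of 2 times the fraction left. Irf7, the interferon regulatory factor after MyD88 that is itself interferon-induced, had 103, 111 and 122 in control MEFs and 351, 262 and 273 in CNOT3KD MEFs, 3.40-fold higher at 0 h. Ikbke, a kinase after TRIF, was 2.76-fold higher at 0 h (101 to 278). Tbk1, the related kinase, was 2626 and 3002 at 0 h, and 6.31% and 8.74% of it were left in the controls against 32.8% and 17.6% in CNOT3KD MEFs. Tab3, a partner of the kinase TAK1, had 19.7% and 7.72% left against 67.0% and 38.9%. Rela, the NF-kB subunit, met both rules and was picked after its values were seen, with 1888, 596 and 346 in control MEFs and 3176, 2339 and 2187 in CNOT3KD MEFs. The share of the list that was higher, 17.6%, was near the 19.5% of all genes. The share that met the rule of 2 times the fraction left was also 17.6%, beside 12.4% of all genes.

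Of 8 brakes, 0 were past 1.5-fold in either direction, beside 19.5% of all genes higher and 15.7% lower. The rule of 2 times the fraction left was met by 3, namely Tank, Sigirr and Zc3h12a, beside 12.4% of all genes. The mirrored rule was met by 1, Socs1, beside 7.48%. Tank, which limits TRAF signalling, had 1645, 543 and 322 in control MEFs and 1194, 1069 and 997 in CNOT3KD MEFs. Sigirr and Zc3h12a, the genes of a decoy receptor of the family and of the RNase Regnase-1, were near background in control MEFs at 12 h. Cyld, a deubiquitinase, was 971 in control and 655 in CNOT3KD MEFs at 0 h. Unlike Irak3, the brakes in this list were thus not past 1.5-fold at 0 h.

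In the IL-1 receptor family, which shares MyD88 and the IRAKs, 1 of 6 measured genes was more than 1.5-fold higher and 2 lower (Il1r1 and Il18r1, the latter near background in both cultures), beside 19.5% and 15.7% of all genes. With near-background signals set to the 25th percentile, 1 was higher and 1 lower. Il1rn, the antagonist, was 338 in control and 624 in CNOT3KD MEFs, 1.84-fold higher. Il1r1, the signalling receptor, had 687, 316 and 32.1 in control MEFs and 416, 263 and 196 in CNOT3KD MEFs, so the control was 1.65-fold higher at 0 h and the lower of the cultures at 12 h. Il1r2, the decoy receptor, was 26.1 and 38.9 at 0 h and near background in control MEFs at 6 h and 12 h.

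Of 6 other Toll-like receptors measured, 1 was more than 1.5-fold higher and 4 lower, beside 19.5% and 15.7% of all genes. With near-background signals set to the 25th percentile, 0 were higher and 2 lower, beside 13.7% and 9.96% of all genes. Tlr9, the receptor for unmethylated DNA, was at least 2.77-fold lower in CNOT3KD MEFs at 0 h, where it was near background, against 52.1 in control MEFs. Tlr13, a receptor for bacterial ribosomal RNA, was near background in 5 of 6 arrays. Ripk3, a RIP kinase that TRIF can engage, was 1596 in control and 2556 in CNOT3KD MEFs, 1.60-fold higher, and nearly flat after Act. D in both. The 75th percentile of the control array at 0 h was 436. The study, in contrast, describes ripk3 as too low on its arrays to judge a change. By qPCR it reports a higher level and a longer half-life of ripk3 after CNOT3 depletion. Ripk1 was not among the genes measured here.

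Of 12 inflammatory targets of the pathway, 2 were more than 1.5-fold higher (Cxcl10 and Icam1) and 3 lower (Il6, Ccl5 and Ptgs2). The shares over all genes were 19.5% and 15.7%. The median log2 fold of the list was -0.11. Cxcl10, an interferon-induced chemokine, was 28.1 in control and 129.6 in CNOT3KD MEFs at 0 h, 4.60-fold higher. Ccl5 was at least 1.98-fold lower, with CNOT3KD MEFs near background. Cxcl1, a neutrophil chemokine, was nearly equal at 0 h (181 and 182) and had 433 in control MEFs and 151 in CNOT3KD MEFs at 12 h. The targets thus had no common direction at 0 h.

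**Figure D4:**
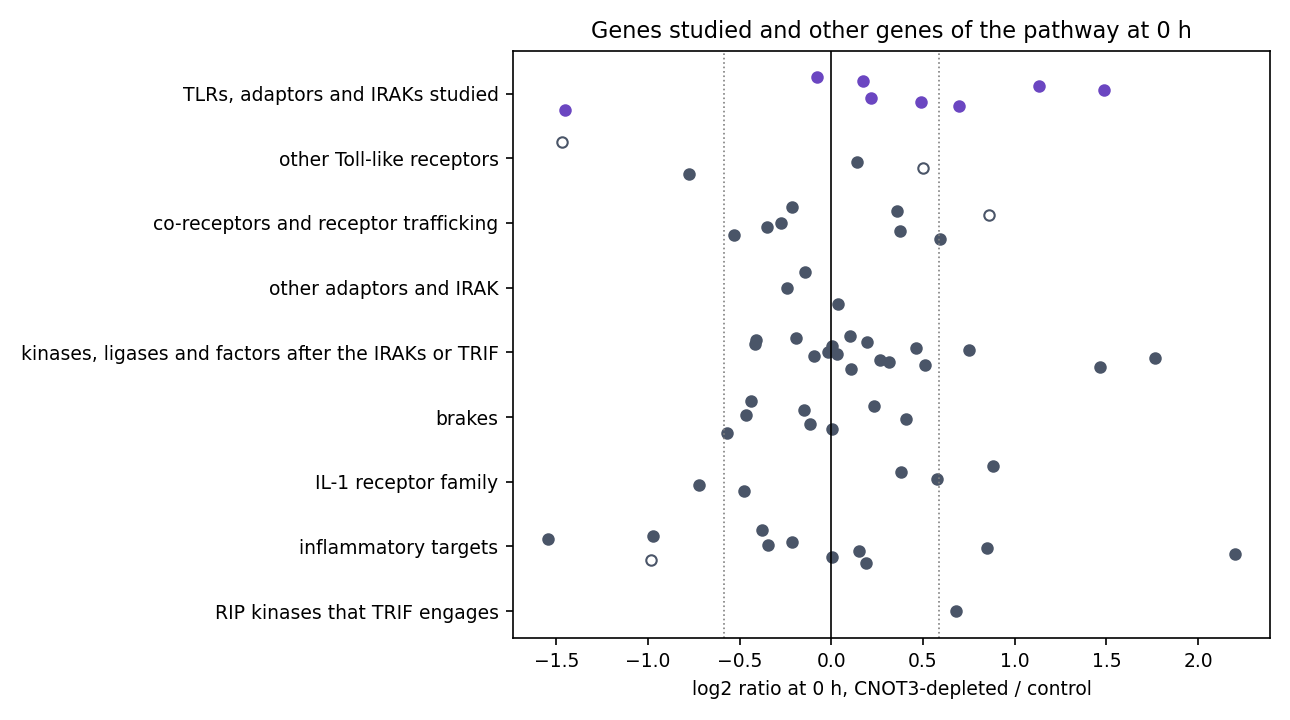
Log2 fold at 0 h, CNOT3KD over control MEFs, of the 9 genes studied and of the other genes of the pathway by list, 1 point per gene from 1 array per culture. Dotted lines mark 1.5-fold, hollow points are bounds and genes near background in both cultures (Tlr1 among them) are left out, and the 8 brakes lie between them while the other lists have genes on one or both sides or, for the other adaptors, none outside.

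Markers of other cells and states were measured on the same arrays. For the counts at 0 h, 19.5% of all genes were more than 1.5-fold higher and 15.7% lower. With near-background signals set to the 25th percentile, these shares were 13.7% and 9.96%. Of 12 leukocyte markers, 3 were more than 1.5-fold higher at 0 h (Cd68, Tyrobp and Cd52) and 2 lower (Itgam and Aif1, near background), with a median log2 fold of 0.40. Their summed signal was between 2617 and 5374 in control MEFs and between 3797 and 5193 in CNOT3KD MEFs, 1.45-fold higher at 0 h. After Act. D, 0 of these 12 markers had more left at both times in CNOT3KD MEFs, beside 38.3% of all genes. Less was left at both times for 10 of them, beside 36.6% of all genes. Of 10 fibroblast markers, 2 had more left at both times and 8 had less. Of 10 interferon response genes measured, 9 were more than 1.5-fold higher, or 8 with near-background signals set to the 25th percentile, with a median log2 fold of 2.34, and their summed signal was 4.54-fold higher at 0 h. Of 6 epithelial markers, 4 were higher, or 2 with that setting, and of 6 endothelial markers 2 were higher and 1 lower. Of 10 fibroblast markers, 0 were past 1.5-fold. No marker was listed at 0, and the part of leukocyte RNA or of the interferon response in the values of Tlr2, Tlr3, Myd88 and Irak3 was not tested.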

How the data were processed

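Total RNA of 6 cultures of MEFs was labelled with biotin and hybridized to GeneChip Mouse Genome 430 2.0 arrays, 1 per condition. The authors computed MAS5 signals and used GeneSpring 12.6. The deposited intensity values are linear, with the MAS5 version and scaling target not given in the sources used here. They were used without further scaling. Of 45037 probe sets, the platform annotation, which can be old, gave 1 gene symbol for 34945, several for 932 and none for 9160.

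Signals under 1 were set to 1. Folds and fractions of the 0 h signal left were ratios of single arrays, read against 1.5-fold at 0 h and 2 times the fraction left at 6 h and 12 h. The code that makes these calls was checked on simulated signals with known folds. The genes, lists and rules were chosen with earlier results of these data known. All genes studied are named. In each other pathway list, the 2 largest log2 folds and the 2 largest mean log2 ratios of the fractions left, in size, are named. They were taken among genes not near background in both cultures at 0 h. Exceptions are marked or are genes that met a rule. In the marker lists, this naming was not applied. The analysis used Python 3.11.15, pandas 2.3.3 and numpy 2.4.6. The alternatives were quantile, ribosomal protein and 75th percentile scaling, a floor at the 25th percentile, the median over probe sets, no dim probe sets, only probe sets ending in _at without a letter before it, and other fold limits. No p-value was computed.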

Additional observations from a re-analysis of the deposited data

Results flagged for a closer look

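After Act. D, the control signal of Tlr3 at its brightest probe set was lower than at 0 h at both times, and the CNOT3KD signal was higher at both, with a mean log2 ratio of the fractions left of 2.58. It was 1.26 with near-background signals set to the 25th percentile. At the dimmer probe set, where the signals of both cultures rose, it was 0.42. This difference was not tested. At the dimmer probe set of Irak3, the control signal was higher than at 0 h at both times and the CNOT3KD signal lower, with a mean log2 ratio of -3.53. This difference was not tested either, and 3 of these 6 values were near background.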

How the results depend on the processing

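With 1 array per condition, a difference between cultures cannot be told apart from a difference between arrays. A fit of culture and time over the 6 arrays, which would take the cultures as alike in their course over time, was not run. The signals of Tlr1 at 0 h, and those of Tlr1, Tlr3, Tlr4 and Irak3 in control MEFs at 12 h, were near background, which limits what their fractions left can show. The count of 3 genes higher at 0 h was 2 with only plain _at probe sets, where Tlr3 was 1.27-fold higher, and 2 with a 2-fold limit. The count lower was 0 instead of 1 with the median over all probe sets or with only plain _at probe sets, since the brightest Irak1 probe set was then not used alone. The count with 2 times the fraction left at both times was 4 instead of 0 with ribosomal protein scaling, beside 22.3% instead of 12.4% of all genes. It was 3 with a limit of 1.5 times, for which the share over all genes was not computed. The count with more left at both times was 8 instead of 5 with ribosomal protein scaling. That scaling moved the median over all genes by 0.53 on the log2 scale and the 75th percentile scaling by -0.40, so the share of all genes with more left at both times was 61.5% and 25.1%. The mean log2 ratio of the fractions left of Irak3 was -0.71 instead of 2.11 with the median over its probe sets. The other 139 values of single genes kept their sign where the main value was past 1.5-fold, and 19 of them moved by more than 1.5-fold, where a single time, another choice of probe sets or, for Tlr1 and Tlr3, the floor was taken.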
